A study of Mus musculus with 3 samples.

Results

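The genes described here are 44 named mitosis and spindle genes, chosen by name from the machinery that condenses, attaches, moves and separates chromosomes, out of 24698 genes in the merged count table. They were read in cultured cells of the adult mouse testis as these cells were driven towards the Leydig fate, on days 4, 7 and 14. All 44 were detected on each of the 3 days.

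The study sorted Sca1+/cKit- interstitial cells from testes of C57BL/6 males aged 8 to 12 weeks and profiled 1 Drop-seq library per day, a droplet method that tags each captured transcript with a cell barcode and a unique molecular identifier (UMI). All 3 groups recovered from sorting for 18 h in serum and were expanded on Matrigel for 3 days with PDGFAA, PDGFBB and FGF2, each at 10 ng/ml, and the Hedgehog agonist SAG at 0.5 µM. Day 4 cells were taken at the end of expansion. Day 7 and day 14 cells had moved to differentiation medium, which kept these factors and added 5 mM LiCl2 and 10 µM DAPT, an inhibitor of gamma-secretase and so of Notch cleavage. The sorted cells are a mixed interstitial population, so a change in the culture can be a change in which cells it holds. With 1 library per day, a difference between days cannot be told apart from a difference between libraries. No test between days was therefore possible, and every interval given covers counting error only.

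In mitosis, cyclin-dependent kinase 1 bound to cyclins A and B starts chromosome condensation and spindle assembly. Kinetochores built on the centromeres bind spindle microtubules, and a checkpoint holds the anaphase-promoting complex until all chromosomes are attached. That complex then marks cyclin B and securin for destruction, the sister chromatids part, and a central spindle guides cytokinesis. Transcription of most of these genes is limited to the late cell cycle, and adult Leydig cells in the testis rarely divide.

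Many late cell cycle promoters carry a cell cycle genes homology region, whose core is TTTGAA, near CCAAT boxes. Of the 44 members, 37 matched an entry of RefSeq promoter sequences on GRCm38.p6, each running from 250 bases before to 50 bases after the gene's start, and these gave 38 promoters because Prc1 has more than 1. Not matched were Tpx2, Smc4, Ccna2, Dlgap5, Aurkb, Kif20a and Pbk. The 150 bases before the start are shown for 4 members used widely as markers of dividing cells and for Smc2, a condensin subunit whose transcripts were spread over many cells on day 14. Each runs 5′ to 3′ on the strand of the gene, with TTTGAA and CCAAT in capitals, which read TTCAAA and ATTGG where the motif lies on the opposite strand.
Cdk1, minus strand, chr10:69352913-69353062: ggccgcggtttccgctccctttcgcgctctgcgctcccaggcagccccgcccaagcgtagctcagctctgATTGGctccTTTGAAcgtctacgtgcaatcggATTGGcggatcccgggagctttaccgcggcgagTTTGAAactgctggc
Cdc20, minus strand, chr4:118437344-118437493: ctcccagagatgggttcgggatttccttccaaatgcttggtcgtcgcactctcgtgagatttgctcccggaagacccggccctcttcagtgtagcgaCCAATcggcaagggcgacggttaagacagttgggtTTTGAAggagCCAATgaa
Ube2c, plus strand, chr2:164769779-164769928: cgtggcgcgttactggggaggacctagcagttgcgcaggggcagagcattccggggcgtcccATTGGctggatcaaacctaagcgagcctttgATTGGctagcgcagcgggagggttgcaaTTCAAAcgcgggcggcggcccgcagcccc
Mki67, minus strand, chr7:135716380-135716529: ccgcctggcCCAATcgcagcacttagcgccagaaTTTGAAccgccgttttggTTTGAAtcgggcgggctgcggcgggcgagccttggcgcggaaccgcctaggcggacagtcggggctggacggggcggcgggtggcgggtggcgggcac
Smc2, plus strand, chr4:52439071-52439220: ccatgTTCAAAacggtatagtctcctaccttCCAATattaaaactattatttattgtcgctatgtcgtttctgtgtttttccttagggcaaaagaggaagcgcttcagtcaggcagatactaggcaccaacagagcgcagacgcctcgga

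The TTTGAA match nearest to the start began 15 bases before it in Cdk1, 18 in Cdc20 and 29 in Ube2c, whereas in Mki67 the nearest began 98 bases before it. Searched on both strands over the 300 bases, TTTGAA was found in 30 of the 38 member promoters (78.9%) and in 17.9% of all 32851 promoters of that table. CCAAT was found in 30 of 38 (78.9%) and in 37.4% of all promoters, and both motifs in 27 of 38 (71.1%) against 6.95%. Within 50 bases either side of the start, 26 of 38 (68.4%) held TTTGAA against 4.94% of all. One pair of matches of the motifs overlapped, in Cdca8. The members matched by TTTGAA and the 8 that were not had close median log2 ratios of day 14 to day 4, at -2.34 and -2.38. These matches describe the letters in the window and do not show that a factor was bound.

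The filtered table held 2980 cells on day 4, 2171 on day 7 and 973 on day 14, with 12677110, 11627440 and 5324400 UMIs. The median cell held 2886.5, 3285 and 3272 UMIs. No cell barcode was shared between libraries. Within a library, however, 1304 of 2980 barcodes on day 4, 1026 of 2171 on day 7 and 504 of 973 on day 14 differed from another barcode of that library only in the last of their 12 bases. Profiles of such pairs were more alike than those of other pairs, with a median Pearson correlation of 0.09, 0.10 and 0.14 on days 4, 7 and 14 against -0.00103, -0.00162 and -0.00288, over 1990 to 2000 genes that left out the members. Where a barcode of such a pair held at least 5 members, its partner did too in 88.2% of cases on day 4, 88.5% on day 7 and 82.8% on day 14. Levels per UMI sequenced do not depend on how barcodes are split, but counts of cells do. The shares of cells with at least 5 members and with at least 1 member are therefore also given with such barcodes summed. Other shares of cells, such as those of single genes and pairs, rest on the barcodes as deposited only.

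Of the day 4 UMIs 34302 belonged to members, of the day 7 UMIs 28451 and of the day 14 UMIs 2768. Drop-seq reads each transcript once at its 3′ end, so levels of different genes are set side by side as transcripts counted, without scaling by length. In counts per 1000000 UMIs (CPM) this was 2706 (95% exact Poisson interval 2677 to 2735), 2447 (2419 to 2475) and 520 (501 to 540). Days 4 and 7 were thus close and day 14 far below both. All 44 members were at least 2-fold lower on day 14 than on day 4, where 18.1% of the 13593 genes with at least 20 UMIs over the 3 days were. All 44 were also at least 2-fold lower on day 14 than on day 7, against 17.4% of genes. The median log2 ratio, with 1 CPM added to each value, was -2.34 for day 14 against day 4 where the median of all genes was -0.04, and -2.22 for day 14 against day 7 where that of all genes was -0.12. For day 7 against day 4 the median was -0.05, against 0.09 for all genes, and it turned to 0.05 with equal weight per cell.

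**Figure D1:**
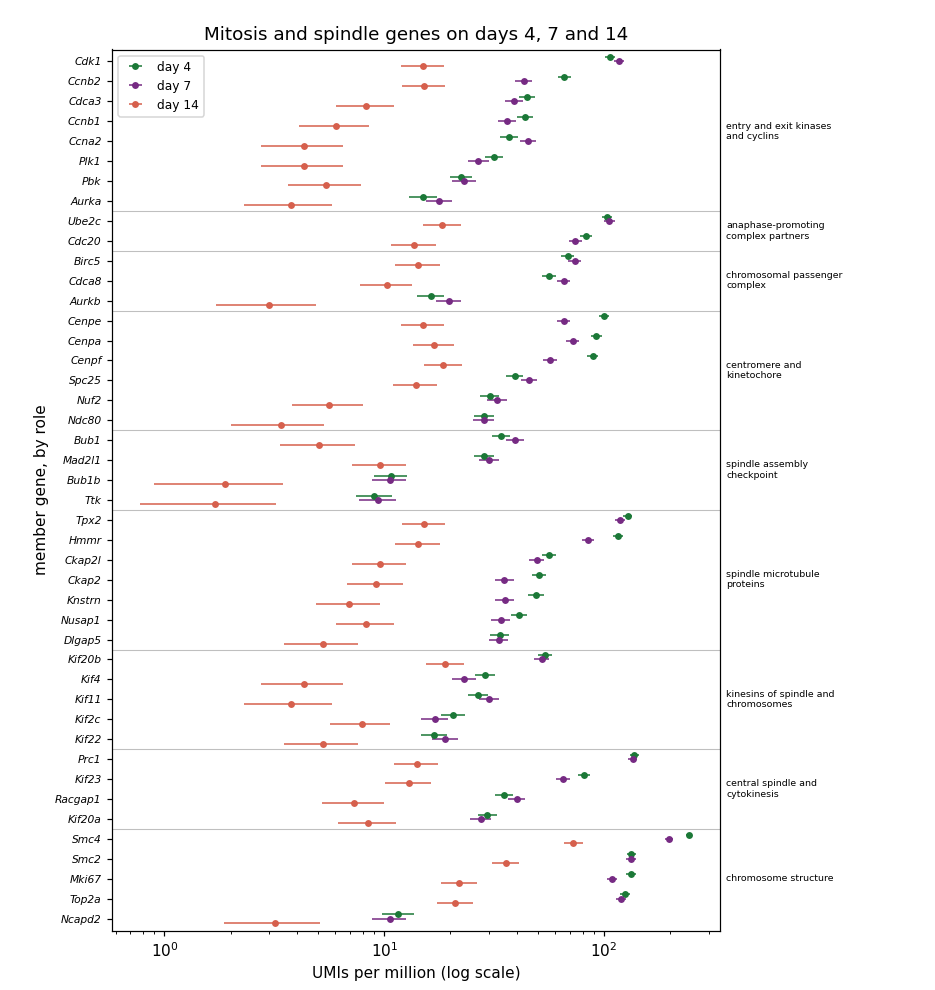
Level of each of the 44 members in CPM (log axis) on days 4, 7 and 14, grouped by role, as points with 95% exact Poisson intervals for counting error. For each gene the day 14 point lies below the other days, from 2.61-fold below day 4 in Kif2c to 9.77-fold in Prc1.

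Among the kinases and cyclins of entry and exit, Cdk1, the kinase that drives entry into mitosis, had the highest level on day 4. It stood at 106.6 CPM on day 4, 116.7 on day 7 and 15.0 on day 14. Cells with a Cdk1 UMI were 15.5%, 20.4% and 3.70% of the cells of these days. Ccna2, cyclin A2, which acts in S phase and early mitosis, stood at 37.1, 45.1 and 4.32 CPM and was among the 5 members with the lowest ratios, with a day 14 to day 4 ratio of 0.117 (0.0731 to 0.177). The group also holds the B cyclins Ccnb1 and Ccnb2, the polo kinase Plk1, the centrosome kinase Aurka, the mitotic kinase Pbk and Cdca3, which promotes mitotic entry. Summed over its 8 genes the group gave 367.1, 348.1 and 62.4 CPM, so that both early days were alike and day 14 low.

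The partners of the anaphase-promoting complex in the list are its activator Cdc20 and its ubiquitin-conjugating enzyme Ube2c. Ube2c stood at 103.3 CPM on day 4, 106.0 on day 7 and 18.4 on day 14, a day 14 to day 4 ratio of 0.178 (0.144 to 0.219). Cdc20 stood at 82.8, 74.0 and 13.7 CPM. In the chromosomal passenger complex, which corrects faulty attachments, Birc5 (survivin) led with 68.5, 73.7 and 14.3 CPM, ahead of Cdca8 (borealin) and the kinase Aurkb. Aurkb was seen in 4.36%, 6.40% and 0.514% of cells, the lowest share of any member on day 14.

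At the centromere and kinetochore, Cenpe, the kinesin that carries chromosomes to the spindle equator, was highest on day 4. It stood at 100 CPM on day 4, 65.4 on day 7 and 15.0 on day 14, which puts day 7 between the other days. Ndc80, of the complex that grips microtubules, stood at 28.6, 28.5 and 3.38 CPM, and its ratio of day 14 to day 4 was 0.118 (0.0694 to 0.190). Its complex partner Spc25 stood at 39.3, 45.7 and 13.9, a ratio of 0.354 (0.273 to 0.452). These counting intervals do not overlap, but the 18 Ndc80 UMIs of day 14 came from 8 cells and are not independent, so the difference between the subunits was not tested. The third subunit in the list, Nuf2, lay between them with a log2 ratio of -2.23. Cenpa, the histone H3 variant of centromeres, and Cenpf, a large kinetochore protein, had log2 ratios of -2.38 and -2.20.

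The spindle assembly checkpoint genes had the lowest summed level of the roles, with 82.2, 89.4 and 18.2 CPM summed over 4 genes. Bub1, a kinetochore kinase, stood at 33.9 CPM on day 4, 39.3 on day 7 and 5.07 on day 14. Mad2l1, which binds and holds back Cdc20, stood at 28.6, 30.1 and 9.58, and its ratio of 0.335 (0.245 to 0.451) was among the 5 highest. Ttk, the kinase that starts checkpoint signalling, had the lowest level of all members on each day, at 8.99, 9.37 and 1.69, the last from 9 UMIs. Bub1b, of the mitotic checkpoint complex, had 10 UMIs on day 14.

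Of the spindle microtubule proteins, Tpx2, which nucleates spindle microtubules and activates Aurka, was highest, at 128.3 CPM on day 4, 118.8 on day 7 and 15.2 on day 14. Hmmr, a spindle pole protein that also binds hyaluronan, stood at 116.0, 84.5 and 14.3. Their day 14 to day 4 ratios of 0.119 (0.0937 to 0.148) and 0.123 (0.0964 to 0.155) were among the 5 lowest. The group includes Nusap1, Dlgap5, Ckap2, Ckap2l and Knstrn, which bind or organise spindle microtubules, and its 7 genes had log2 ratios between -3.00 and -2.19.

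The kinesins of the spindle and chromosomes were the role with the smallest difference, with a median log2 ratio of day 14 to day 4 of -1.51, against -1.87 to -2.47 in the other 8 roles. Kif20b, a kinesin that acts in cytokinesis, was the highest of them at 53.9 CPM on day 4, 52.0 on day 7 and 19.0 on day 14. Kif2c, the kinesin that takes microtubules apart at centromeres, stood at 20.6, 16.9 and 7.89 CPM, a ratio of 0.383 (0.270 to 0.532), the highest of all members. Kif22, which pushes chromosome arms, stood at 16.9, 19.0 and 5.26. Kif11, which slides spindle poles apart, and Kif4, which shapes chromosomes and the midzone, lay further below day 4, with log2 ratios of -2.54 and -2.49.

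The central spindle genes include the member with the lowest ratio, Prc1, which bundles antiparallel microtubules. Prc1 stood at 137.6 CPM on day 4, 135.2 on day 7 and 14.1 on day 14, a ratio of 0.102 (0.0801 to 0.129). Kif23 and Racgap1, which form the centralspindlin complex, and the kinesin Kif20a had log2 ratios of -2.55, -2.12 and -1.69. In the chromosome structure group, the condensin ATPases Smc4 and Smc2 had the highest and the third highest level of all members on day 4. Smc4 stood at 243.6 CPM on day 4, 198.1 on day 7 and 72.5 on day 14. It had the highest level of all members on each of the 3 days. Smc2 stood at 133.2, 132.9 and 35.7. Mki67, the coat protein of mitotic chromosomes, stood at 132.7, 108.8 and 22, and Top2a, which untangles DNA, at 124.5, 119.8 and 21. Ncapd2, a condensin I subunit, was low throughout, at 11.6, 10.6 and 3.19.

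Of the 44 members, 8 overlap a protein-coding gene on the opposite strand in GENCODE M21 (Ccna2, Cdc20, Ube2c, Cdca8, Nusap1, Kif4, Prc1 and Kif20a). Whether strand was used in counting is not given in the sources used here, so their values could hold reads of the partner gene.

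Day 7 against day 4 gave a mixed order, not a common shift. No member was 2-fold apart, where 4.91% of all genes were at least 2-fold lower and 6.22% at least 2-fold higher on day 7. The counting interval of the ratio lay below 1 for 19 members, above 1 for 5 and included 1 for 20. The share of all genes with such intervals was not computed, so these counts have no background to be set against. The lowest ratios were those of Cenpf at 0.640 (0.580 to 0.705), Cenpe at 0.654 (0.597 to 0.716) and Ccnb2 at 0.655 (0.585 to 0.732). The 5 with intervals above 1 were Cdk1, Bub1, Spc25, Cdca8 and Ccna2, of which Ccna2 was highest at 1.22 (1.07 to 1.38). Those named kept their direction when libraries were scaled by median-of-ratios size factors or when each cell was weighted equally. Over all members 19 were lower and 11 higher on day 7 under all 3 scalings, and 14 changed direction between them. In the same comparison, the 18 genes of an S phase list were all higher on day 7, with a median log2 ratio of 0.30, and 15 of 18 were under median-of-ratios scaling. Of all 13593 genes, 8143 were higher on day 7, and the median log2 ratio of all genes was 0.09.

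At the level of single cells the members were found together. Cells with at least 5 of the 44 numbered 618 of 2980 on day 4 (20.7%, 95% exact binomial interval 19.3 to 22.2), 507 of 2171 on day 7 (23.4%, 21.6 to 25.2) and 28 of 973 on day 14 (2.88%, 1.92 to 4.13). Days 4 and 7 thus overlapped in their intervals and day 14 lay apart. With barcodes that shared 11 bases summed, the shares were 23.8%, 27.5% and 3.83%. With each cell thinned to 1500 UMIs, which left out 753, 429 and 179 shallower cells, they were 17.4%, 17.9% and 2.02%. Cells with at least 20 members numbered 252, 207 and 12. At the other end, 37.9%, 33.9% and 55.7% of cells held no member UMI at all. With barcodes summed, 73.2%, 77.7% and 62.2% held at least 1 member, against 62.1%, 66.1% and 44.3% as deposited.

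**Figure D2:**
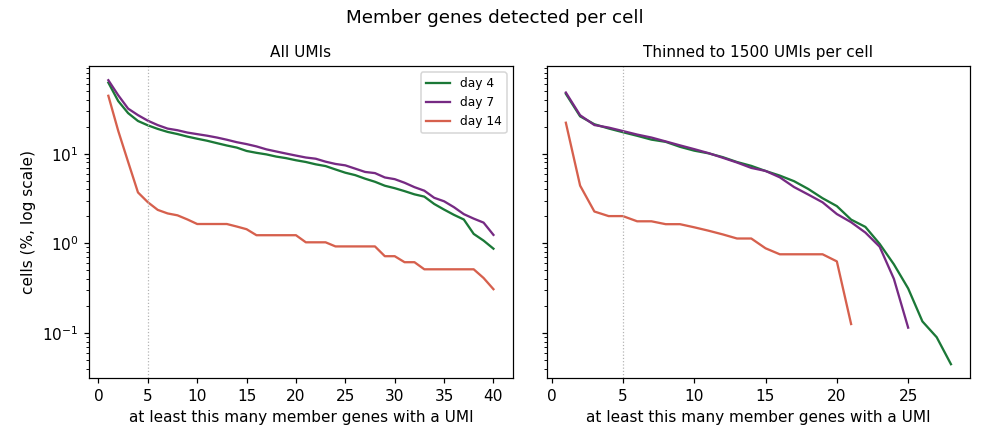
Share of cells (%, log axis) with at least the given number of the 44 members detected, with all UMIs (left) and with each cell thinned to 1500 UMIs (right), the dotted line marking 5 members. Day 14 parts from days 4 and 7 at low numbers, and at 5 members 2.88% of its cells remain against 20.7% and 23.4%.

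Cells with at least 5 members were deeper than other cells, with a median of 4406 UMIs against 2655.5 on day 4, 5493 against 2835 on day 7 and 7618.5 against 3186 on day 14. They held 92.9% of the member UMIs of day 4, 92.8% of those of day 7 and 74.0% of those of day 14 (72.3 to 75.6). In these cells the members summed to 8892, 6830 and 6078 CPM on days 4, 7 and 14, and in the other cells to 268.8, 264.1 and 144.6. The level in CPM within cells defined by having at least 5 other members was lower on day 14 than on day 4 for 41 of 44 members. The median log2 ratio was -0.43, beside the -2.34 over all cells. Day 7 was lower than day 4 in such cells for 41 of 44 as well, with a median of -0.30. Day 14 was lower than day 7 for 31 of 44, with a median of -0.15. No share of all genes was computed within such cells. These cells were picked by the members, so their level is a description.

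Pairs of members were compared for detection in the same cell. Of the cells with a Nuf2 UMI, 109 of 220 on day 4, 111 of 193 on day 7 and 8 of 13 on day 14 also held Ndc80. Of the cells without Nuf2, 3.77% on day 4 and 3.39% on day 7 held Ndc80, and all 8 Ndc80 cells of day 14 held Nuf2. Of the cells with Cdk1, 159 of 461 on day 4, 142 of 442 on day 7 and 6 of 36 on day 14 held its partner Ccnb1, against 4.25%, 2.95% and 0.213% of the cells without Cdk1. The condensin partner Smc4 was found in 70.5%, 71.5% and 45.3% of Smc2 cells and in 27.6%, 28.5% and 18.5% of the others. Each pair was thus seen together more often than the second gene was seen without the first, and in the Cdk1 pair most Cdk1 cells had no Ccnb1 UMI. These shares are not thinned. Cells with a member UMI were deeper than cells with none, with medians of 4071 against 1855 UMIs on day 4, 4943 against 1965 on day 7 and 6494 against 2345.5 on day 14. No pair of unrelated genes was read, so what depth alone gives was not tested. Of the cells with Mki67, 249 of 437 on day 4, 219 of 328 on day 7 and 7 of 18 on day 14 also held Top2a, against 4.13%, 6.02% and 0.838% of the cells without Mki67. Smc4 was far less bound to such cells. It was found in 360 of the 437 Mki67 cells of day 4 and in all 18 of day 14, but also in 27.8% and 19.6% of the cells without Mki67.

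The residual level on day 14 was held by very few barcodes. Of the member UMIs, 50% lay in 6 barcodes on day 14, in 95 on day 4 and in 77 on day 7. The 5 highest barcodes held 1353 of the 2768 member UMIs of day 14 (48.9%), against 6.15% on day 4 and 7.81% on day 7. Without those 5 barcodes the members summed to 269.7 CPM on day 14 in place of 520, and with the 5 highest left out on each day the median log2 ratio of day 14 to day 4 was -3.14.

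**Figure D3:**
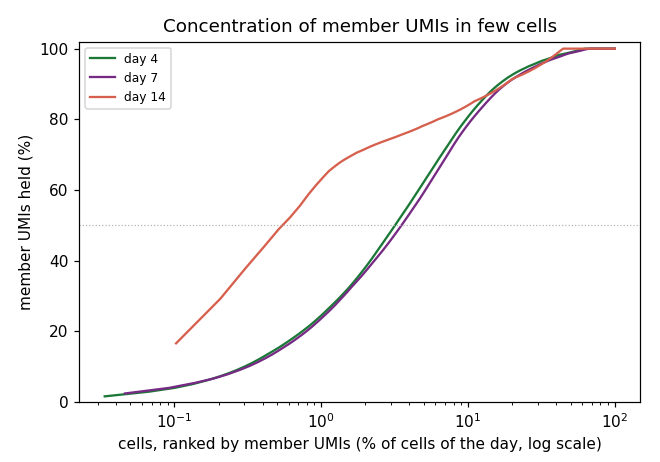
Share of all member UMIs of a day (%) held by its cells when these are ranked from the most member UMIs down, as a percent of the cells of that day (log axis), with the dotted line at 50%. The day 14 curve reaches 50% within 0.617% of its cells, and the curves of days 4 and 7 at 3.19% and 3.55%.

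These day 14 barcodes did not have 1 profile. The barcode with the most member UMIs held 459 of them, from 42 members, among 18378 UMIs in all. It also held 24 UMIs of Cyp17a1, 70 of Cyp11a1, 104 of Hsd3b1 and 90 of Insl3, the steroid enzymes and peptide hormone of Leydig cells, and 1 of Star. The second held 349 UMIs from all 44 members with 0 of Cyp17a1, 9 of Insl3 and 15 of Dcn, a stromal matrix gene. The third held 245 from 38 members together with 957 UMIs of the macrophage lysozyme gene Lyz2 and all 15 UMIs of the pan-leukocyte gene Ptprc seen on day 14. A macrophage profile was thus present in 1 of the 12 barcodes with at least 20 members.

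The other barcodes with at least 10 members held 17 to 167 member UMIs. Of the 16 such barcodes, 14 had a Dcn UMI, 12 an Insl3 UMI, 2 a Cyp17a1 UMI and 2 an Acta2 UMI, the smooth muscle actin gene of myofibroblasts. Such UMIs were also common outside them, since among the day 14 cells with under 5 members 71.3% had an Insl3 UMI, 24.9% a Cyp17a1 UMI and 9.31% an Acta2 UMI. The share of those cells with a Dcn UMI was not computed, so the count of barcodes with Dcn does not mark them as stromal. The 16 barcodes came from 13 distinct sets of the first 11 bases, since 4 of them shared 1 set. No doublet caller was run, and whether the deep barcodes with 2 kinds of profile hold more than 1 cell was not tested.

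Cyp17a1, the enzyme that makes androgens, is a marker of mature Leydig cells. Of the 242 day 14 cells with a Cyp17a1 UMI, 7 held at least 5 members (2.89%), as did 21 of the other cells (2.87%). These close shares belong to the cut at 5 members. Of the 16 barcodes with at least 10 members, 2 had a Cyp17a1 UMI, and 1 of these was the macrophage barcode, with 1 such UMI. Median depths were 6057 UMIs in Cyp17a1 cells and 2885 in the others. The summed level was 486.2 CPM in Cyp17a1 cells and 540.9 in the others. The median member had a UMI in 2.07% of Cyp17a1 cells and in 1.85% of all day 14 cells. These groups differ in depth, and Cyp17a1 cells include the barcode with the most member UMIs of day 14, so they are no measure of the background that free RNA gives. At 1500 UMIs per cell the median member was seen in 5.30%, 5.17% and 0.882% of cells on days 4, 7 and 14, and in 0.763% of the 131 day 14 cells that still held a Cyp17a1 UMI after thinning. The share of day 14 cells with a UMI of a single member therefore has no background measured here, and was not read as a share of cells that express the gene.

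Cells of other kinds were checked with marker lists. The 10 germ cell genes summed to 137.9, 24.3 and 49.8 CPM on days 4, 7 and 14, nearly all from Prm1, Prm2, Tnp1 and Tnp2, which are genes of spermatids, germ cells that no longer divide. In cells with at least 5 members they summed to 84.0, 24.3 and 47.5 CPM against 159.1, 24.3 and 49.9 in the others. Ddx4, the germ cell helicase, was detected in 0 of 618, 0 of 507 and 0 of 28 such cells. Taken as 3 divided by the number of cells, an approximate limit and not the exact binomial one, this allows shares of up to 0.485%, 0.592% and 10.7% for cells with a Ddx4 UMI. It sets no limit on cells that express Ddx4. The 6 macrophage genes summed to 3025 CPM in the cells with at least 5 members of day 14 and to 25.1 in the others, and 957 of the 959 Lyz2 UMIs of the former lay in the single barcode described. On days 4 and 7 those sums were 2.23 against 10.3 and 34.1 against 21.3. The 6 Leydig genes summed to 6891 against 7711 on day 14, and the 5 myofibroblast genes to 4374 against 5542 on day 4, 5057 against 5051 on day 7 and 139.5 against 243.0 on day 14. The Leydig sum of day 14 does not describe the barcodes with the most members. Of the 243 Cyp17a1 UMIs in the 28 cells, 1 barcode with at least 10 members held 24 and another held 1. The remaining barcodes with at least 10 members held 0. On day 14 the 4 interstitial progenitor genes summed to 469.1 against 558.6, the 5 Sertoli genes to 20.8 against 58.9 and the 5 endothelial genes to 35.6 against 21.7. Single genes made most of the last 2 sums. Cdh5 gave 11 of 12 endothelial UMIs and all 108 in the others, with Pecam1, Tie1 and Kdr at 0. Gata4 and Sox9 gave 5 and 2 of 7 Sertoli UMIs and 210 and 67 of 294 in the others, with Amh at 0. Those sums therefore do not mark Sertoli or endothelial cells. Of the progenitor genes, Tcf21 was at 44.5 against 12.0 CPM, the former from 15 UMIs, and Ly6a at 198.9 against 369.1.

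Members differed in how their transcripts were spread. For each gene the UMIs were split by whether the cell held at least 5 of the other 43 members. The median member had 94.9% of its UMIs in such cells on day 4, 95.2% on day 7 and 84.8% on day 14. More than 90% lay there for 38 members on day 4, 36 on day 7 and 15 on day 14. Mki67 kept 99.1% of its 117 day 14 UMIs in such cells, Kif23 98.6% and Ndc80 100% of 18. In contrast, Kif2c had 28.6% there on day 14 against 96.6% on day 4, Smc4 34.2% against 72.2%, Kif4 34.8% against 94%, Mad2l1 43.1% against 80.7%, Kif20b 45.5% against 95.6% and Smc2 47.9% against 87.4%. These were the 6 members with less than 50% on day 14, and no member was under 50% on day 4.

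**Figure D4:**
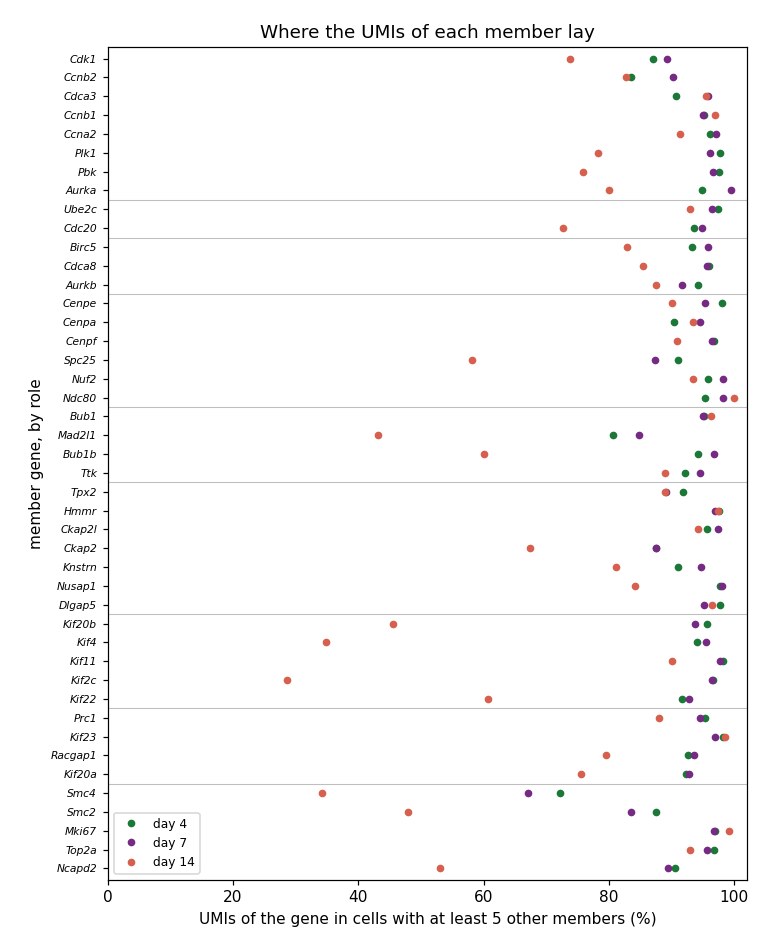
Percent of the UMIs of each member that lay in cells with at least 5 other members, on days 4, 7 and 14, grouped by role. On days 4 and 7 nearly all genes lie to the right, with Smc4 lowest at 72.2% on day 4, whereas on day 14 Kif2c, Smc4, Kif4, Mad2l1, Kif20b and Smc2 lie under 50%.

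The level in the cells with under 5 other members was also compared. These cells were set apart by the members themselves, and far more cells lay above that limit on day 4 than on day 14, so their levels are a description and the share of all genes beside them, which this split does not touch, is no measure of what the split alone gives. Of the 40 members with at least 20 UMIs in such cells over the 3 days, 25 were at least 2-fold lower, where 16.6% of all genes in cells with under 5 members were, and 2 were at least 2-fold higher, where 17% of all genes were. These counts take no pseudocount, and many day 14 values are near the floor. With 1 CPM added, 18 of the 44 members had a log2 ratio under -1. Their median was -0.84, against -0.0155 for all genes in cells with under 5 members. The counting interval of the ratio lay below 1 for 23 of 44 members and above 1 for 2, Kif2c and Kif20b. Here too the share of all genes with such intervals was not computed.

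Kif2c was at 0.989 CPM in these cells on day 4, 0.900 on day 7 and 6.01 on day 14, from 9, 7 and 30 UMIs, a day 14 to day 4 ratio of 6.08 (2.81 to 14.6). Kif20b was at 3.29, 4.86 and 11, from 30, 38 and 55 UMIs, a ratio of 3.34 (2.10 to 5.39). Both were thus lower on day 14 in the whole library and higher in the cells with under 5 other members. Among those day 14 cells, Kif2c was at 10.1 CPM in cells with a Cyp17a1 UMI and 3.54 in those without, a ratio of 2.85 (1.29 to 6.62), and Kif20b at 11.7 and 10.5, a ratio of 1.11 (0.615 to 1.96). Of the other members, only those whose interval left out 1 are named here, and these went either way. Birc5 was at a ratio of 3.71 (1.04 to 16.5), from 9 UMIs in cells with Cyp17a1 and 4 in those without. Smc2 was at 0.562 (0.342 to 0.896), from 25 and 74 UMIs. Cdk1 was at 0.0826 (0.00199 to 0.516), from 1 and 20 UMIs, the former near the floor. The share of all genes with such intervals was not computed. Kif2c was seen in 7.85% of Cyp17a1 cells and 2.05% of the others, which differ in depth. After thinning to 1500 UMIs it was seen in 3.05% of the 131 cells that still held a Cyp17a1 UMI. All day 14 cells that could be thinned, these 131 included, gave 1.26%. The 131 were thus chosen anew by their thinned counts and are not the same group as the Cyp17a1 cells before thinning. No background was measured for these shares, and the difference was not tested.

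Smc4 and Smc2 were also detected outside the cells with many members on each day. Smc4 was at 91.3 CPM there on day 4, 92.7 on day 7 and 49.7 on day 14, a day 14 to day 4 ratio of 0.544 (0.471 to 0.627). Of the cells with no other member, 20%, 17.8% and 14.8% held an Smc4 UMI. Smc2 was at 23.0, 31.3 and 19.7, a day 14 to day 4 ratio of 0.859 (0.670 to 1.10). Mki67 was at 5.81, 5.38 and 0.198 in such cells, the last from 1 UMI.

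**Figure D5:**
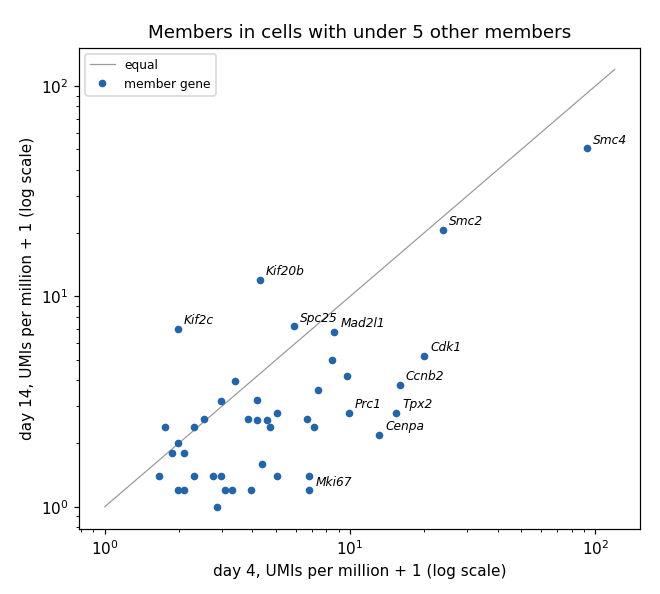
Level of each member in cells with under 5 other members, as CPM plus 1 on log axes, on day 4 (horizontal) and day 14 (vertical), with the grey line at equal levels. Kif2c and Kif20b lie above the line with ratios of 6.08 and 3.34, and Smc4, at 91.3 and 49.7 CPM before 1 is added, lies far to the right of the others.

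Other genes of mitosis were read from a list of 64. On day 14 against day 4, 44 of the 64 were at least 2-fold lower and 0 at least 2-fold higher, where 18.1% and 17.3% of all genes were. The median log2 ratio of the 64 was -1.40, against -0.04 for all genes. The 3 highest on day 4 were the cohesin subunit Smc1a at 232.2 CPM on day 4, 197.1 on day 7 and 155.9 on day 14, the kinase cofactor Cks1b at 232.0, 195.7 and 76.8, and the cohesin subunit Smc3 at 215.3, 173.0 and 136.7. Cohesin, unlike the condensins in the member list, also acts on chromosomes outside mitosis. The genes not lower on day 14 were Pttg1, Psrc1, Anapc5, Stag2 and Mad2l2, and these were also higher on day 14 with median-of-ratios scaling and with equal weight per cell. Pttg1, securin, the protein that the anaphase-promoting complex destroys to free separase, stood at 134.8, 121.6 and 206.2 CPM, a ratio of 1.53 (1.42 to 1.65), and was seen in 36.9%, 38.6% and 52.6% of cells. It thus differed from its regulators Cdc20 and Ube2c, which were 6.04-fold and 5.61-fold lower.

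The 18 genes of the S phase list were lower on day 14 than on day 4 too, with a median log2 ratio of -1.50. At least 2-fold lower were 17 of them, where 18.1% of all genes were. In cells with at least 5 members they summed to 1448, 1653 and 834.3 CPM on days 4, 7 and 14, against 354.7, 382.8 and 162.6 in the other cells.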

How the data were processed

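Drop-seq counts of days 4, 7 and 14 were used. The authors aligned reads to GRCm38 with STAR (2.5.2a in the submitters' processing notes; the paper's methods name another version) and made, with Drop-seq tools, the deposited UMI counts per gene and cell, which are not normalized. Cells in their merged table have 500 genes or more, and mitochondrial UMIs of 10% or less; its 495 columns of another library were not analysed here. Counts were summed per day and given per 1000000 UMIs (CPM), with 95% exact Poisson intervals; ratios have conditional binomial and shares exact binomial intervals. Log2 ratios add 1 CPM and need at least 20 UMIs over the 3 days. Thinning drew 1500 UMIs per cell (seed 1). Python 3.11.15, numpy 2.4.6 and scipy 1.17.1 were used, and the ratio step was tested on simulated data. Members, lists and tests were chosen with earlier results of these data known. All members are described by role; values are given for the highest of each role and the 5 highest and 5 lowest ratios, and the others named with values were chosen after these were seen. Gene positions are from GENCODE M21 (GRCm38) and promoters from RefSeq. Alternatives varied the pseudocount, filters, scaling, thinning and number of members, and summed barcodes that shared 11 bases.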

Additional observations from a re-analysis of the deposited data

Results flagged for a closer look

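The deposited tables of single days hold barcodes that the filtered table leaves out, and these were not part of the comparisons above. There were 320 on day 4, 229 on day 7 and 327 on day 14, with a median of 569, 580 and 319 UMIs. The summed level of the 44 members in them was 1188 CPM on day 4 (1025 to 1369), 2439 on day 7 (2168 to 2736) and 403.7 on day 14 (299.6 to 532.2), above the limit that a count of 0 allows. These levels came from 191, 292 and 50 UMIs, and 9, 15 and 3 of the barcodes held at least 5 members. The order of the days differed from that in the filtered cells, since day 7 stood highest here.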

How the results depend on the processing

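No paired analysis was possible because each day has 1 library and no test was made. By the ratio of CPM, which takes no pseudocount, all 44 members were at least 2-fold lower on day 14 than day 4 under each alternative run. On the log2 scale 37 of 44 were at -1 or lower with a pseudocount of 10 CPM and 43 of 44 when thinned to 1500 UMIs. The 396 log2 ratios of single members under 9 settings ran from -5.35 to -0.70, all below 0. The median log2 ratio of day 14 to day 4 moved from -2.34 to -1.59 with a pseudocount of 10 CPM and to -3.14 without the 5 barcodes with the most member UMIs on each day, and that of day 14 to day 7 from -2.22 to -1.48 and -3.00.

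Shares of cells with at least 5 members moved most with the number of members asked for and with depth. On days 4, 7 and 14 they were 28.4%, 31.9% and 8.12% with at least 3 members, and 14.7%, 16.5% and 1.64% with at least 10. Thinned to 1000 UMIs they were 14.5%, 15.0% and 1.31%, and thinned to 1500 UMIs 17.4% and 17.9% on days 4 and 7. With barcodes that share 11 bases summed they were 23.8% and 27.5% on days 4 and 7, an alternative chosen after seeing the data, as was leaving out the 5 barcodes. The stricter cell filter (at least 800 genes, at most 5% mitochondrial UMIs) gave 22.8% and 25.7% on days 4 and 7. On day 4 no cell filter gave 19.0% and leaving out the 6% of cells with the most UMIs 19.3%. The share of day 14 member UMIs in such cells, 74.0%, was 81.7% with at least 3 members, 69.9% with at least 10, 63.4% and 56.7% thinned to 1500 and 1000 UMIs, 62.0% without the 6% of deepest cells and 49.0% without the 5 barcodes. Day 14 stayed lowest in each of these settings. With 28 such barcodes on day 14, depth limits what can be said of their makeup.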
